A study of Mus musculus with 18 samples.

Results

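Colons of mice given the KO strain of Lactobacillus plantarum ZJ316 were compared with colons of mice given the wild-type (WT) strain. The comparison used the 4 KO and the 4 WT libraries of a series of 18, and the 12880 genes of 18349 in the table that reached at least 1 FPKM (fragments scaled to transcript length and to library size) in at least 3 of these 8 libraries. All mice were male C57BL/6 animals of WT host genotype, so WT, KO and COM name the bacterium and not the mouse. Mice of the KO, WT and COM groups were given drinking water with 2.5% DSS (dextran sulfate sodium) for 7 days, which damages the lining of the colon. They then received ZJ316-KO, ZJ316 or ZJ316-COM by gavage, 200 µL per 10 g of body weight, for 5 weeks. The DSS group (3 libraries) had the same DSS course followed by PBS, and the Control group (3 libraries) drank water. The labels do not spell out KO or COM and do not name the gene altered in the KO strain. They also do not tie a library to 1 animal, so the p-values measure a spread between libraries. That spread was estimated from all 18 libraries of the 5 groups. No mouse gene was targeted, so no gene in the table checks the group labels.

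Lactobacillus plantarum is a lactic acid bacterium found in fermented foods, and some of its strains secrete bacteriocins, peptides that kill related bacteria. The title of the series speaks of a lactic acid bacterial bacteriocin and of purine and histidine metabolism in the microbes of the gut, whereas the values described here are transcripts of the host. The colon wall holds an epithelium of absorptive, goblet, tuft and endocrine cells renewed from crypt stem cells, immune cells and fibroblasts beneath it, and a coat of smooth muscle with its own neurons. DSS strips parts of the epithelium, phagocytes enter, and the tissue heals over the following weeks. Whole colon was sequenced, so fewer cells of a type and less RNA per cell cannot be told apart in any value below.

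The colon markers were present in all 8 libraries: the mean log2(FPKM + 1) of 16 absorptive colonocyte genes lay between 7.03 and 8.03. Some libraries stood apart in other tissue markers. KO 3 averaged 9.14 on the pancreatic acinar list, where no other of the 8 exceeded 1.08. On the squamous epithelium list WT 2 averaged 2.26, WT 4 averaged 1.75, KO 3 averaged 1.52 and the rest did not exceed 0.58. KO 2 averaged 1.93 on the distal gut Hox list, below the range of 2.79 to 3.37 in the remaining 7. KO 2 also had the lowest macrophage level and the highest absorptive and tuft cell levels of the 8. Libraries outside these 8, which also enter the estimate of spread, stood apart as well. DSS 1 (10.7) and DSS 3 (8.21) were high on the acinar list, and DSS 2 (2.73) and COM 3 (2.72) on the squamous list. Control 3 was low on the distal gut Hox list (1.25), and COM 2 was high on the interferon-induced list (5.87). The part of these differences in the results was not tested. Results without the KO and WT libraries named here are given where they change.

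Of the 12880 genes, 111 passed a Benjamini-Hochberg adjusted p under 0.05 in limma, which is 0.862% of those tested. In KO, 43 were higher (0.334%) and 68 were lower (0.528%). At an unadjusted p under 0.05 there were 2640 genes (20.5%), of which 1185 were higher (9.2%) and 1455 lower (11.3%). For all 111 called genes the 4 KO libraries lay wholly above or wholly below the 4 WT libraries, which was also so for 2239 of all genes (17.4%), 1006 with KO above (7.81%) and 1233 with KO below (9.57%). The changes were small: the median absolute log2 fold change of the called genes was 0.36, 80 of them were under 0.5, and only Dbp exceeded 1. The median log2 fold change of all genes was -0.03. On the log2 scale the KO mean was higher for 5691 of the 12880 genes and lower for 7189. These counts and the shares above are the background of every gene list below. These calls took the spread from all 18 libraries. With the spread of only the 8 KO and WT libraries 515 genes were called, and with the 12 KO, WT and COM libraries 682.

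The called counts changed widely when single libraries were left out. Without WT 3, limma called 0 genes, while 2068 had an unadjusted p under 0.05. Without WT 2 it called 2 genes, without KO 3 it called 7, without KO 4 it called 10, without KO 2 it called 13 and without WT 1 it called 15. Leaving out WT 4 or KO 1 gave 163 and 158. Without both KO 2 and KO 3 only 1 gene, H1f0, was called, and without WT 2, WT 4 and KO 3 limma called 0, with 1415 at an unadjusted p under 0.05. In every one of these fits all 111 genes kept the sign of their change.

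The direction of a change went with transcript length and base composition. The 43 genes called higher had a median transcript length of 2075 bases and a median GC content of 55.4%. For the 68 called lower, 67 of which had a value, the medians were 4469 bases and 45.9%, and for all genes tested 3064 bases and 50.3%. Each library's own trend of level on GC also differed between the groups. Per 10 points of GC, the trend lay between -0.08 and 0.00075 log2 units in WT and between 0.0096 and 0.08 in KO, so the groups did not overlap. With these trends removed from every library, 47 genes were called, 22 higher and 25 lower, and they held 35 of the 111. Of the 24 genes named by rule below, 11 stayed called. Golt1a, Flywch2, C1qtnf6, Stum, Inafm1, Mtss2, Clec4a1, Hspa4l, Ctsc, Plod2, Hspa8 and Cited2 lost the call, at adjusted p-values of 0.0538 to 0.102 in limma, and Ndufb4c had no length value. C5ar1 (0.0538) and Nlrc4 (0.107) also lost it. Rescaling the values to TPM, a unit that sums to the same total in every library, gave 26 higher and 97 lower, beside 43 and 68 as deposited.

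**Figure D1:**
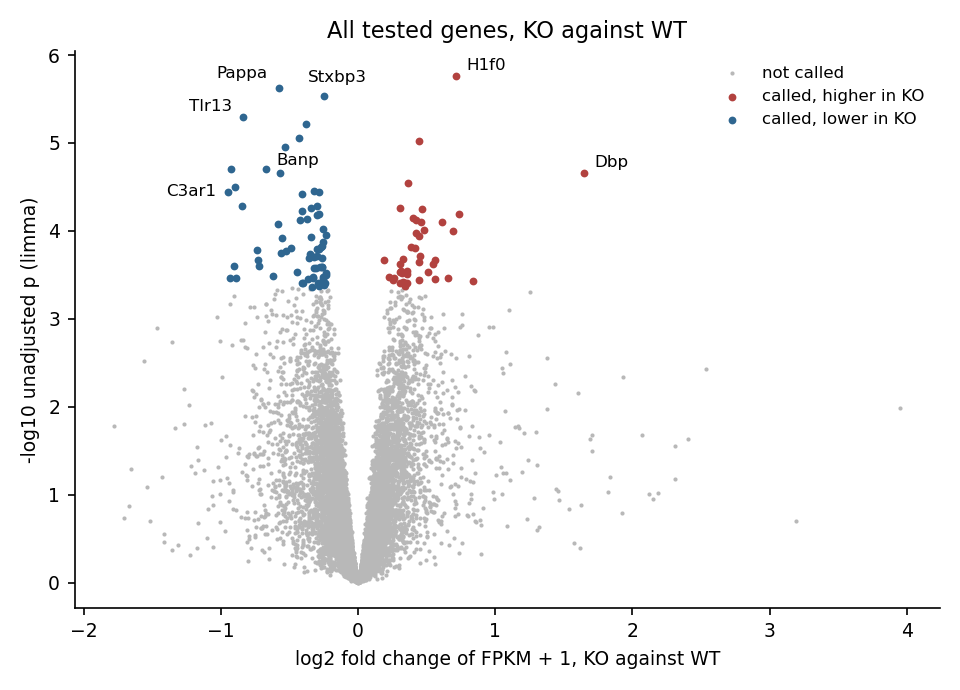
Each point is 1 of the 12880 genes, with the log2 fold change of FPKM + 1 in KO against WT on the horizontal axis and the -log10 unadjusted p from limma on the vertical axis. The 43 genes called higher and the 68 called lower are coloured, and Dbp is the only called gene with an absolute log2 fold change over 1.

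The circadian clock is a feedback loop in nearly all cells. The proteins Clock (or Npas2) and Bmal1, the product of Arntl, bind E-boxes and switch on the genes of their own repressors, Per, Cry and Ciart, and of output factors such as Dbp, Tef and Hlf. Dbp, Tef and Hlf are related factors that bind D-boxes in further genes. The bases upstream of the first listed RefSeq start (GRCm38.p6) are shown for 3 clock-driven genes whose values follow. They are Dbp at chr7:45704997-45705246 and Tef at chr15:81802423-81802672, both on the plus strand, and Ciart at chr3:95882229-95882478 on the minus strand. Each is written 5′ to 3′ and ends just before the start, with E-boxes (CACGTG, which reads the same on both strands) in capitals.
Dbp: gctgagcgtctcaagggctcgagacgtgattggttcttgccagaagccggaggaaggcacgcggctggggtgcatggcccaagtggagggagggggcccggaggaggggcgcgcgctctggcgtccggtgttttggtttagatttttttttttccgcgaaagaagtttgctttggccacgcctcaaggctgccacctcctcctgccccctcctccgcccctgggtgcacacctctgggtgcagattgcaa
Tef: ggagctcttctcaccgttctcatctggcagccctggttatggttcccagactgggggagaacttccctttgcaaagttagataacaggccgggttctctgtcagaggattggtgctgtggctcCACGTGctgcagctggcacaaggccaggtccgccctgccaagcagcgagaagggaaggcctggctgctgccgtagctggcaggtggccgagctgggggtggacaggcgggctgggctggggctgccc
Ciart: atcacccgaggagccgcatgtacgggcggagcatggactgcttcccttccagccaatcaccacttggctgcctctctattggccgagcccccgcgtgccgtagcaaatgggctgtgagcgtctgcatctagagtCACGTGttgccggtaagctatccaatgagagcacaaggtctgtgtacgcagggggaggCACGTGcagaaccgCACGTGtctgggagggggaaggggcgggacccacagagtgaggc
Tef held 1 E-box, beginning 127 bases upstream of this start. Ciart held 3, beginning 116, 58 and 44 bases upstream. No CACGTG was in the Dbp window. The annotated Dbp gene begins at position 45705100, within this window, so the window lies partly inside the gene. Among the 32851 RefSeq promoter windows of the same 250 bases, 6.02% held an E-box on either strand. In the core clock list it was in 4 of the 13 genes with a window (Per1, Cry1, Ciart and Bhlhe41), and in the clock output list in 3 of 10 (Tef, Fkbp5 and Sgk1). The D-box TTATGTAA was in 0.819% of windows, in 1 of the 13 core clock genes (Per3) and in 0 of the 10 output genes. A list gene counted if any of its windows held the motif, whereas the 6.02% and 0.819% are per window. The list counts and these shares are thus unlike measures.

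Dbp showed the largest change of any called gene. In WT 1 to 4 it measured 3.80, 3.20, 2.03 and 7.66 FPKM, and in KO 1 to 4 it measured 13.7, 11.4, 12.3 and 20.3. The highest WT library, WT 4, stayed below the lowest KO library. The KO mean of 14.4 ± 4.03 FPKM (SD, n = 4) was 3.45 times the WT mean of 4.17 ± 2.44 (SD, n = 4), a log2 fold change of 1.65 ± 0.28 (SE, adjusted p = 0.0235 in limma). The COM libraries measured 19.2, 24.3, 20.3 and 14.6 FPKM, the DSS libraries 1.63, 3.04 and 1.08, and the Control libraries 1.01, 1.48 and 1.43. KO and COM thus overlapped, and all 8 of their libraries were above the other 10. Leaving out WT 3 brought the log2 fold change to 1.43 and leaving out WT 4 to 1.93, and the adjusted p ranged up to 0.118, without WT 2.

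No other output gene passed the adjusted test, and 8 of the 11 had a higher KO mean, Dbp included. Of all 12880 genes, 5691 had a higher KO mean, and 9.2% were higher at an unadjusted p under 0.05. Tef measured 8.12, 6.08, 5.44 and 13.4 FPKM in WT and 13.4, 10.0, 14.9 and 15.7 in KO, with WT 4 inside the KO range (log2 fold change 0.70 ± 0.22, adjusted p = 0.106). Hlf was at 0.71 to 1.07 FPKM in WT and 1.12 to 1.60 in KO (0.32, adjusted p = 0.133). Every KO library of Hlf met the filter level of 1 FPKM, and its lowest WT library did not. Wee1, a clock-driven kinase that holds cells before division, had a log2 fold change of -0.26 (adjusted p = 0.204). Of the 11 output genes tested, 1 was called, and 3 were higher and 1 lower at an unadjusted p under 0.05, with a median of 0.08.

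None of the 17 core clock genes tested was called. At an unadjusted p under 0.05, 1 was higher and 3 were lower, beside 9.2% higher and 11.3% lower of all genes. The median was -0.03, equal to that of all genes. The 3 lower genes were the activators Npas2, Clock and Arntl, and with so few no pattern is read from them. Npas2 measured 16.5 to 23.8 FPKM in WT and 12.2 to 16.4 in KO (-0.45, adjusted p = 0.1). Clock measured 16.4 to 17.9 in WT and 11.5 to 14.3 in KO (-0.34, adjusted p = 0.115), and Arntl 24.8 to 26.3 and 19.0 to 20.96 (-0.34, adjusted p = 0.19). For each of these 3 genes the KO and WT libraries did not overlap, which was also so for 17.4% of all genes. Cry2, a repressor, measured 3.46 to 5.70 FPKM in WT and 5.34 to 6.59 in KO (0.46, adjusted p = 0.0754). Ciart was at 0.53 to 1.18 and 0.85 to 2.38 FPKM (0.43, adjusted p = 0.259), and the repressors Per1 and Per2 had log2 fold changes of -0.04 and 0.01. The labels give no hour of tissue collection.

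**Figure D2:**
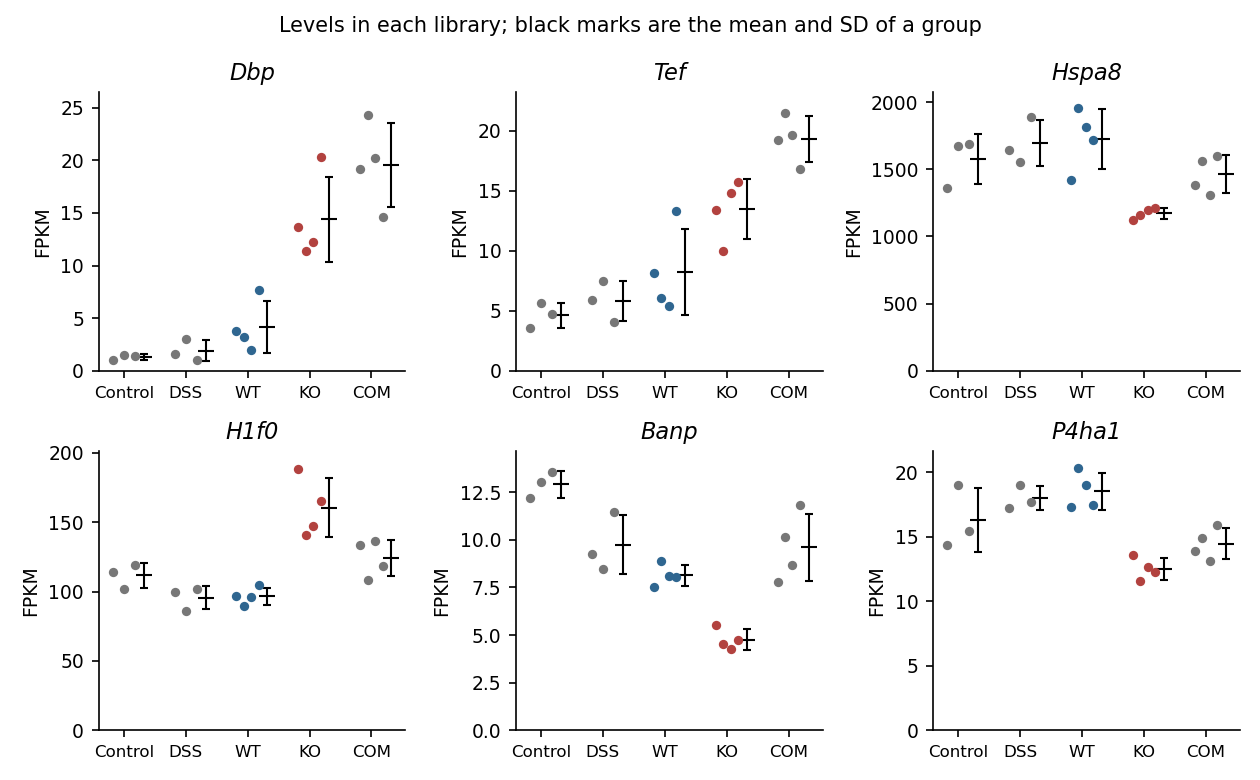
FPKM of Dbp, Tef, Hspa8, H1f0, Banp and P4ha1 in every library of the 5 groups, with 1 point per library and the mean with its SD as a black mark at the right of each group. For Dbp the KO libraries (11.4 to 20.3) and COM libraries (14.6 to 24.3) sit above all others, for Banp the KO libraries (4.28 to 5.53) sit below all others, and for Tef the WT and KO groups overlap.

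H1f0, the linker histone that accumulates in cells that have stopped dividing, was called in 19 of 23 alternative fits, more than any other of the 24 genes named by rule. Its WT libraries measured 97.1, 89.5, 95.8 and 104 FPKM and its KO libraries 188, 141, 147 and 165. Every KO library exceeded every WT library, and the COM libraries (108 to 137) fell between. The log2 fold change was 0.72 ± 0.10 (SE, adjusted p = 0.0127), and it stayed between 0.64 and 0.78 when any 1 library was left out, with a call in 6 of 8 such fits.

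Sox9, a transcription factor of crypt base and secretory progenitor cells, rose from 12.3 to 16.5 FPKM in WT to 19.5 to 25.6 in KO (0.69 ± 0.13, adjusted p = 0.0352). It was the only called member of the 13 crypt stem cell and Wnt target genes tested. Ephb3, a Wnt-driven receptor that positions cells along the crypt, was at 6.70 to 7.73 and 8.71 to 10.4 FPKM (0.36, adjusted p = 0.079), and Nkd1, a Wnt feedback inhibitor, at 2.87 to 3.22 and 3.55 to 4.34 (0.28, adjusted p = 0.115). The KO and WT libraries did not overlap for either. Axin2, another Wnt feedback gene, had overlapping libraries and a log2 fold change of 0.20, which was 0.11 without WT 3 and 0.12 without KO 1. In the 18 cell cycle genes no member passed even the unadjusted test, and their median was -0.09.

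Of the other genes named as higher in KO, Golt1a, a vesicle transport protein, rose from 2.74 to 4.23 FPKM in WT to 5.57 to 8.75 in KO (log2 fold change 0.84 ± 0.19). Cystm1, a small cysteine-rich membrane protein, rose from 24.4 to 32.2 FPKM to 43.1 to 50.0 (0.74 ± 0.14). Krt18, a keratin of simple epithelia, rose from 262 to 332 FPKM to 352 to 466 (0.46 ± 0.09). Together with Flywch2 (0.57), C1qtnf6 (0.56), Stum (0.55), Inafm1 (0.47), Pm20d1 (0.45) and Mtss2 (0.45), these and the 3 genes above make the 12 with the largest rise among those with a KO mean of at least 5 FPKM. Their adjusted p-values lay between 0.0127 and 0.0477. Krt18 has near-identical copies in the genome, and how their reads were shared is not given in the sources used here.

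Among the genes named as lower in KO was Banp, a factor that binds unmethylated CpG island promoters. It measured 7.53, 8.90, 8.08 and 8.03 FPKM in WT and 5.53, 4.52, 4.28 and 4.72 in KO. Every KO library was below every other library of the series: COM lay between 7.78 and 11.8 FPKM, DSS between 8.48 and 11.5, and Control between 12.2 and 13.6. The log2 fold change was -0.67 ± 0.11 against WT (adjusted p = 0.0235) and -0.87 against COM (adjusted p = 0.0108). It was the 1 gene of the 24 named by rule that also passed in KO against COM.

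Heat shock chaperones refold proteins, and their transcripts follow temperature and stress. Hspa8, the constitutive Hsc70, fell from 1423, 1953, 1813 and 1720 FPKM in WT to 1121, 1158, 1196 and 1210 in KO. The 4 KO libraries were tightly grouped, and all lay below the lowest WT library, WT 1. The log2 fold change was -0.55 ± 0.11 (SE, adjusted p = 0.0369), and COM, at 1309 to 1601 FPKM, lay above KO and overlapped WT. Hspa4l, an Hsp110 family nucleotide exchange factor for Hsp70 proteins, fell from 19.1 to 25.4 FPKM to 11.4 to 14.2 (-0.72 ± 0.15, adjusted p = 0.0457). It was named by its change and not as a list member.

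The heat shock list did not move as a whole. Of its 16 members tested, Hspa8 alone was called, and 2 were higher and 2 lower at an unadjusted p under 0.05, with a median of -0.07. Chordc1, an Hsp90 co-chaperone, was at 27.0 to 37.2 FPKM in WT and 21.3 to 26.5 in KO (-0.40, adjusted p = 0.175). The 2 cold-inducible RNA-binding genes lay on the other side: Cirbp at 15.1 to 20 and 20.4 to 25.5 FPKM (0.40, adjusted p = 0.141), and Rbm3 at 87.7 to 112 and 117 to 123 (0.27, adjusted p = 0.172). The heat shock element GAANNTTC, on either strand, was in any window of 6 of the 12 list genes that had one. Counted per window, which is an unlike measure, it was in 6.69% of all windows. Hspa8 had no window. The Hsp70 genes share long stretches of sequence, so Hspa8 could take reads of its copies. Of 14 unfolded protein response genes none was called, 1 was higher and 5 were lower at an unadjusted p under 0.05, among them Xbp1 (-0.45, adjusted p = 0.0981), and Atf4 was the higher one (0.32, adjusted p = 0.0801).

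Both collagen-modifying enzymes named by rule were lower in KO. P4ha1, a catalytic subunit of collagen prolyl 4-hydroxylase, measured 17.3, 20.4, 19.1 and 17.5 FPKM in WT and 13.6, 11.5, 12.6 and 12.3 in KO. Its groups were separate, and the log2 fold change was -0.53 ± 0.08 (SE, adjusted p = 0.0177). Plod2, a lysyl hydroxylase of collagen, fell from 6.77 to 7.11 FPKM to 3.84 to 4.89 (-0.56 ± 0.12, adjusted p = 0.043). The 14 fibroblast and collagen genes had a median of -0.29, with 0 called and 3 lower at an unadjusted p under 0.05. Fbn1 (-0.32) and Col5a2 (-0.33) were among these 3. After quantile normalization 1 gene of the list was lower at that threshold.

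P4ha1 is also on the list of 17 hypoxia-linked genes, where it was the only call, and where 1 member was higher and 4 were lower at an unadjusted p under 0.05. Bnip3, a mitochondrial autophagy receptor, was at 16.8 to 21.2 FPKM in WT and 10.1 to 13.95 in KO (-0.59, adjusted p = 0.0508). Egln3, an oxygen-sensing prolyl hydroxylase, was at 53.2 to 69.4 and 27.2 to 43.4 (-0.66, adjusted p = 0.215). Car9, a carbonic anhydrase, went the other way with a log2 fold change of 0.25 (adjusted p = 0.179), which was 0.11 without KO 2. Cited2, a negative regulator of hypoxia-inducible factors that was not on the list, fell from 37.0 to 48.2 FPKM to 27.1 to 36.3 (-0.49 ± 0.10, adjusted p = 0.0413).

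Of the 12 genes named as lower, 3 are known mainly from immune cells. Itgam, the CD11b integrin chain of macrophages and neutrophils, measured 5.02, 5.99, 5.26 and 5.61 FPKM in WT and 3.96, 2.51, 3.03 and 2.22 in KO (-0.74 ± 0.15, adjusted p = 0.0414). Clec4a1, a lectin receptor of monocytes and macrophages, fell from 7.19 to 9.17 FPKM to 2.99 to 6.28 (-0.90 ± 0.19), and Ctsc, the protease that activates granule enzymes of immune cells, from 35.3 to 39.3 to 19.1 to 28.4 (-0.62 ± 0.14). For all of these, KO 1 was the KO library nearest to WT.

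A further group of receptor genes was below the 5 FPKM level of the naming rule and was picked out after the values were seen. The receptors of complement peptides C3a and C5a fell: C3ar1 from 3.42 to 3.83 FPKM to 1.05 to 2.35 (-0.94 ± 0.17, adjusted p = 0.0274), and C5ar1 from 2.76 to 3.85 to 0.81 to 1.74 (-0.93 ± 0.20, adjusted p = 0.0477). Tlr13, a sensor of bacterial ribosomal RNA, fell from 2.04 to 2.51 FPKM to 0.67 to 1.06 (-0.84 ± 0.12, adjusted p = 0.0155) and was called in 6 of 8 fits that left out 1 library. Every WT library of Tlr13 met the filter level of 1 FPKM, while the KO libraries lay about or below it. Tlr13 thus passed the filter through the group where it was high. For C5ar1 too, the lowest KO library was under that level and every WT library above it. The formyl peptide receptor Fpr1 (-0.84) and the lymphocyte receptor Cd244a (-0.59) were also called. In each of these 5 genes the COM libraries overlapped the KO range or lay between it and the WT range, and no gene of the 5 passed in KO against COM.

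No macrophage marker was called with all 18 libraries in the fit. Of the 11 members tested, all 11 had a lower KO mean, and 10 were lower at an unadjusted p under 0.05, against 11.3% of all genes. A lower KO mean was found for 7189 of all 12880 genes. The list median was -0.69. Adgre1, which encodes F4/80, was at 5.89 to 7.67 FPKM in WT and 2.46 to 4.48 in KO (-0.90, adjusted p = 0.0527). Fcgr3, an IgG receptor, was at 17.2 to 22.2 and 6.69 to 13.99 (-1.03, adjusted p = 0.0568), Ms4a7 at 9.69 to 13.2 and 5.06 to 9.13 (-0.79, adjusted p = 0.0558), and the mannose receptor Mrc1 at 6.03 to 7.29 and 2.79 to 5.00 (-0.65, adjusted p = 0.108). Over the whole list the mean log2 level was 4.43 to 4.61 in WT, 3.49 to 4.24 in KO and 3.88 to 4.29 in COM, and its summed FPKM was 517 to 601 in WT and 267 to 471 in KO. The number lower at an unadjusted p under 0.05 was 5 without KO 2, 4 without KO 2 and KO 3, and 5 without WT 2, WT 4 and KO 3. Calls under other settings, all of them lower, were 6 with only the 8 KO and WT libraries, 8 with the 12 KO, WT and COM libraries, 3 after quantile normalization, 2 with a filter of 5 FPKM, 3 without KO 1, and 5 with the length and GC trends removed in a fit of only the 8 libraries.

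In the chemokine list no gene was called, and 8 of 18 members were lower and 1 higher at an unadjusted p under 0.05 (median -0.59). Among all genes, 11.3% were lower and 9.2% higher at that threshold. Ccl7, a monocyte attractant, was at 5.01 to 11.1 FPKM in WT and 2.05 to 3.03 in KO (-1.23, adjusted p = 0.124), and Ccl8 at 17.8 to 40.3 and 10.6 to 15.1 (-0.83, adjusted p = 0.139). Cxcl5, a neutrophil attractant, was at 5.23 to 24.4 and 1.42 to 6.66, with WT 4 in the KO range (-1.78, adjusted p = 0.156). The count of lower chemokine genes was 4 without KO 2, 4 without WT 3, 5 without WT 2, 5 without WT 4, and 2 without WT 2, WT 4 and KO 3.

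The plasma cell list had 4 of 8 members lower at an unadjusted p under 0.05 (median -0.61), among them Irf4 (-0.63, adjusted p = 0.185). That count was 1 without WT 3, 2 without KO 2, 1 without KO 2 and KO 3, and 2 without WT 2, WT 4 and KO 3. It was also 1 when 0.1 in place of 1 was added to each FPKM value. Among all genes 11.3% were lower at that threshold, the background for each list of this paragraph. The T and NK cell list had 3 of 11 lower (median -0.48), with Cd3e, a T cell receptor chain, at -0.70 (adjusted p = 0.0763) and Nkg7, a cytotoxic granule protein, at -0.69, or -0.46 without WT 4. Its count was 1 without WT 2, WT 3, WT 4 or KO 2, 2 without KO 4, 5 without KO 1 and 7 without WT 1. The interferon-induced list had 4 of 19 lower (median -0.46), with Oas2 at 12.95 to 34.0 FPKM in WT and 6.91 to 8.34 in KO (-1.11, adjusted p = 0.154), and Gbp3 at -0.96. All 19 interferon-induced members had a lower KO mean, as had 7189 of all 12880 genes. WT 4 stood apart on this list with a mean log2 level of 5.15, beside 4.30 to 4.38 in WT 1 to 3 and 3.81 to 4.09 in KO. Without WT 4 limma found 0 members lower at an unadjusted p under 0.05, and the median was -0.22. The count was 1 without WT 1, KO 1 or KO 2, 2 without WT 2, and 2 with a replicate block. WT 4 was also the highest WT library on the T and NK cell list (2.74, beside 1.73 to 2.20). The 10 MHC class II genes had a median of -0.33 with none past the unadjusted test, and the 5 neutrophil genes that could be tested a median of -0.54 with 1 lower. B cell genes differed from these: all 10 had a higher KO mean, their median was 0.17 and none passed the unadjusted test. A higher KO mean was found for 5691 of all 12880 genes.

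Among 19 pattern recognition and inflammasome genes, Nlrc4, which assembles the inflammasome for flagellin, was the 1 call. It fell from 15.8 to 19.98 FPKM to 13.1 to 14.7 (-0.33 ± 0.07, adjusted p = 0.0477). At an unadjusted p under 0.05, 7 members were lower and 1 was higher, beside 11.3% and 9.2% of all genes. Tlr4, the lipopolysaccharide receptor, was at 7.10 to 11.3 FPKM in WT and 5.11 to 6.58 in KO (-0.63, adjusted p = 0.0568), and Casp4, a sensor of intracellular lipopolysaccharide, at 36.8 to 57.2 and 30.6 to 38.1 (-0.49, adjusted p = 0.0815). Gsdmc2, an epithelial gasdermin, was the higher member at 215 to 362 and 491 to 702 FPKM (0.98, adjusted p = 0.0627), and its COM libraries (234 to 265) stood with WT.

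**Figure D3:**
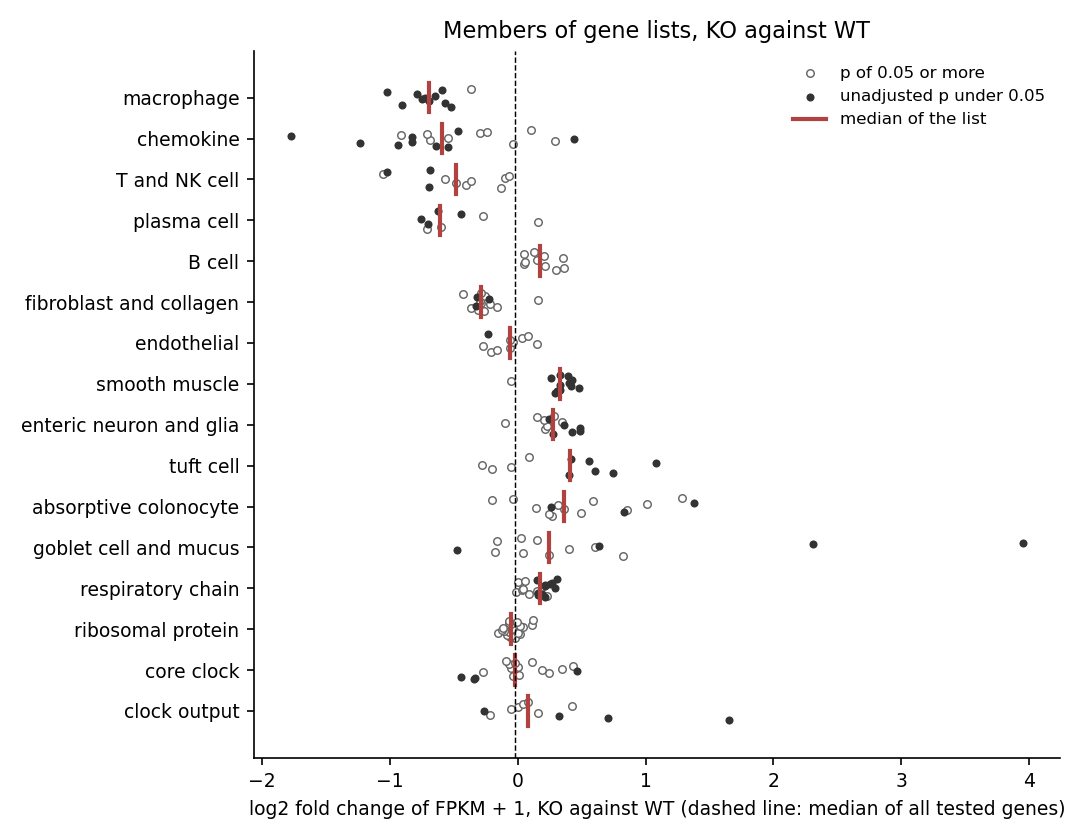
Each point is the log2 fold change in KO against WT of 1 tested member of a gene list. The macrophage list lies wholly below 0, with a median of -0.69, and the smooth muscle list lies above 0 except for 1 member, with a median of 0.33.

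In the smooth muscle list, 11 of 12 genes were higher in KO at an unadjusted p under 0.05, against 9.2% of all genes, and none was called. Myl9, a myosin light chain, was at 293 to 382 FPKM in WT and 418 to 460 in KO (0.40, adjusted p = 0.0568). Cnn1, the actin-binding calponin of contractile muscle, was at 216 to 290 and 297 to 365 (0.48, adjusted p = 0.0587), with separate groups for both genes. Desmin (Des, 0.41, adjusted p = 0.0952) and the myosin kinase Mylk (0.33, adjusted p = 0.143) were on the same side. The list mean overlapped, at 6.60 to 6.96 in WT, 6.90 to 7.19 in KO and 6.63 to 7.11 in COM. The count was 5 without WT 3, 5 without KO 3 and 7 without WT 4. It was 2 without KO 2 and KO 3, and 1 without WT 2, WT 4 and KO 3. After quantile normalization it was 7.

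Genes of the neurons and glia of the gut wall lay on the same side. At an unadjusted p under 0.05, 6 of 13 were higher, beside 9.2% of all genes, with a median of 0.27 and no call. Snap25, a synaptic release protein, was at 5.82 to 7.86 FPKM in WT and 7.91 to 10.9 in KO (0.42, adjusted p = 0.136). Prph (0.48) and Uchl1 (0.48) had adjusted p-values of 0.148 and 0.182. The count was 3 without WT 3, 3 without WT 4, 2 without KO 2, 1 without KO 3 and 0 without both KO 2 and KO 3, where limma found no member past the unadjusted test.

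**Figure D4:**
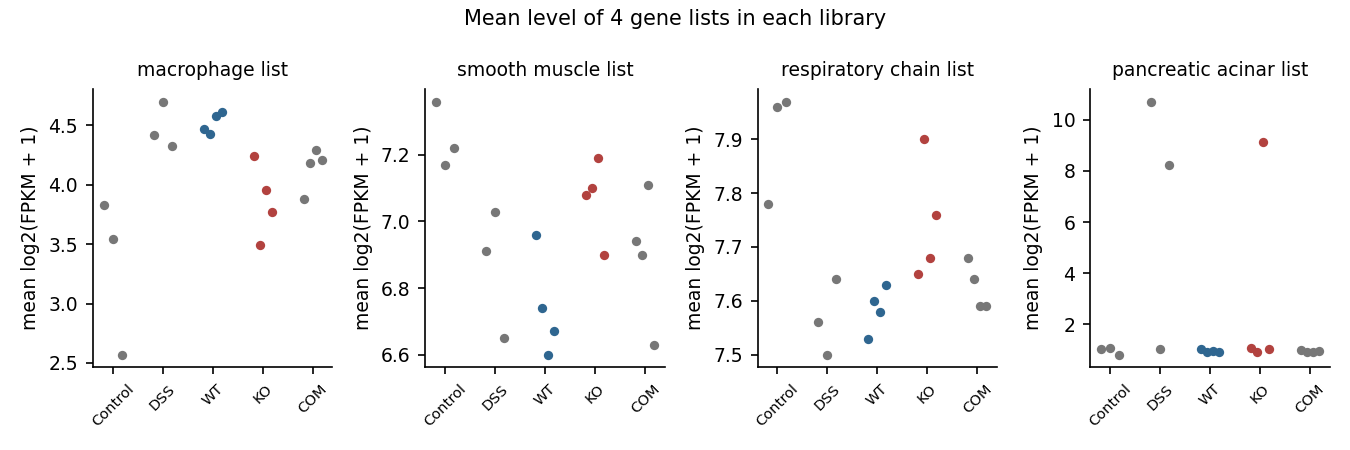
Mean log2(FPKM + 1) of the macrophage, smooth muscle, respiratory chain and pancreatic acinar lists in every library of the 5 groups, 1 point per library, with vertical axes that do not start at 0. The macrophage level is 4.43 to 4.61 in WT and 3.49 to 4.24 in KO. Acinar transcripts are high in KO 3 at 9.14, and also in DSS 1 at 10.7 and DSS 3 at 8.21.

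No tuft, absorptive or goblet cell marker was called. Among all genes, 9.2% were higher and 11.3% lower at an unadjusted p under 0.05. Of 10 tuft cell genes, 6 were higher at an unadjusted p under 0.05 (median 0.41), of 15 absorptive colonocyte genes 3 (median 0.36), and of 13 goblet cell genes 3 higher and 1 lower (median 0.25). Sh2d6, an adaptor of tuft cells, was at 1.40 to 2.95 FPKM in WT and 3.64 to 8.53 in KO (1.08, adjusted p = 0.0784), and the tuft genes Alox5 (0.60), Gnat3 (0.56) and Trpm5 (0.74) also had separate groups, each with KO 2 highest. The tuft count was 3 without KO 2, 3 without WT 4, 4 without WT 1, 4 without KO 3, and 1 without KO 2 and KO 3. The 4 genes named are all among the higher ones, and 3 of the 10 had a lower KO mean. With a filter of 5 FPKM only 3 tuft genes could be tested, none passed the unadjusted test, and their median was -0.20.

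Guca2a, which encodes the secreted hormone guanylin, was at 669 to 1183 FPKM in WT and 1556 to 3343 in KO (1.38, adjusted p = 0.0794). Its relative Guca2b (0.59), the water channel Aqp8 (0.83) and the microvillus protein Vil1 (0.26) had adjusted p-values of 0.244, 0.221 and 0.0915. Markers of small intestine also moved with the groups: the summed level of the 13 genes was 33.7 to 70.2 FPKM in WT, 80.1 to 319 in KO and 43.6 to 407 in COM. Of the 6 that could be tested, 2 were higher at an unadjusted p under 0.05 and 4 had a lower KO mean (median -0.06), and limma found 0 past the unadjusted test without KO 2. The alkaline phosphatase gene Alpi, 1 of the 2 higher members, passed the filter through the KO group, where it was high. The part of this list in the absorptive cell values was not tested. Among goblet genes, Retnlb, a bactericidal resistin-like protein, was at 4.12, 23.0, 50.0 and 13.5 FPKM in WT and 124, 847, 219 and 224 in KO. The groups were separate, but the spread within each was large, and the adjusted p was 0.129 for a log2 fold change of 3.95 ± 1.35 (SE). Ang4, an antimicrobial ribonuclease, was at 77.5 to 311 and 416 to 1392 (2.31, adjusted p = 0.191). Spink4 (0.63) was on the same side, and Tff3, a mucosal repair peptide, on the other at 2017 to 2402 and 1309 to 1885 (-0.47, adjusted p = 0.168).

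Genes made by inflamed epithelium followed more than 1 pattern. Slpi, a protease inhibitor, was at 40.0 to 50.0 FPKM in WT and 5.79 to 19.97 in KO (-1.56, adjusted p = 0.0828). Lbp measured 10.3, 20.8, 28.1 and 4.42 in WT and 3.44 to 5.63 in KO (-1.36, adjusted p = 0.0737). Lrg1 (-1.27) and the nitric oxide synthase Nos2 (-1.33) shared this layout, with WT 2 and WT 3 highest and WT 4 within the KO range. In the list of 15 acute phase and oxidase genes 3 were lower at an unadjusted p under 0.05 and none was called.

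Tight junction genes had a median of -0.01, with 1 of 16 higher and 2 lower at an unadjusted p under 0.05. Cldn1 was at 1.59 to 2.65 FPKM in WT and 0.28 to 1.06 in KO (-0.82, adjusted p = 0.0763), and Cldn23 at 15.02 to 20.03 and 21.6 to 33.4 (0.68, adjusted p = 0.0784). Every WT library of Cldn1 was above the filter level of 1 FPKM, and its lowest KO library was not. The scaffold protein Tjp1 (-0.25) had an adjusted p of 0.122. The immediate early genes, which respond within minutes to growth signals and to handling, had 3 of 14 higher (median 0.26). Nr4a1 measured 4.83 to 6.70 FPKM in WT and 21.02, 8.92, 20.4 and 8.30 in KO (1.10, adjusted p = 0.0565), and Atf3 (0.49), Klf4 (0.29) and Nr4a2 (0.36) overlapped between the groups.

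Nuclear genes of the respiratory chain, which carries electrons to oxygen in mitochondria, were higher in KO by small amounts. Of 20 genes, 11 were higher at an unadjusted p under 0.05, 19 had a higher KO mean, and none was called (median 0.17). Among all 12880 genes, 9.2% were higher at that threshold and 5691 had a higher KO mean. Atp5g1, a subunit of ATP synthase, was at 249 to 291 FPKM in WT and 306 to 408 in KO (0.30, adjusted p = 0.106). Ndufv1 of complex I (0.16), Cox7b of complex IV (0.27) and Uqcrq of complex III (0.29) had adjusted p-values of 0.109, 0.119 and 0.156, and Uqcrq was 0.16 without KO 2. The list mean was 7.53 to 7.63 in WT and 7.65 to 7.90 in KO. The count was 7 without WT 1, 7 without WT 3, 3 without KO 2, 5 without KO 4, 2 without KO 2 and KO 3, and 5 after quantile normalization. Ribosomal protein genes had a median of -0.05, and none of 20 passed the unadjusted test, while 4 were lower after quantile normalization.

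Ndufb4c went against this list. It fell from 30.0 to 36.1 FPKM in WT to 18.8 to 26.1 in KO (-0.57 ± 0.10, adjusted p = 0.0235). The gene is a near-identical copy of a complex I subunit gene, so its reads cannot be separated from those of its copies with certainty.

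Purine and histidine genes of the host were described whatever they showed. Purines are the bases of ATP, GTP and nucleic acids, made by a long pathway or salvaged, and broken down to uric acid. Of 19 purine synthesis and salvage genes, 0 were called in limma, 2 were higher and 1 was lower at an unadjusted p under 0.05, and the median was -0.11. Prps1, which makes the ribose donor of the pathway, was at 14.3, 21.3, 19.9 and 11.9 FPKM in WT and 10.98 to 11.8 in KO, with WT 4 just above the highest KO library (-0.50, adjusted p = 0.102). The adenylate kinase Ak1 (0.30), Impdh1 of guanine nucleotide synthesis (0.36) and Adsl (-0.18) had adjusted p-values of 0.184, 0.208 and 0.249.

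In purine breakdown, 0 of 12 genes were called, 1 was higher and 2 were lower at an unadjusted p under 0.05, and the median was -0.03. Xdh, the xanthine oxidase that makes uric acid, measured 51.2, 55.1, 61.4 and 43.7 FPKM in WT and 29.4, 30.7, 29.1 and 33.1 in KO. Its groups were separate (-0.76 ± 0.18, adjusted p = 0.0558). Gda, which turns guanine into xanthine, measured 68.6, 63.8, 64.8 and 37.9 in WT and 29.3 to 40.1 in KO, with WT 4 in the KO range (-0.73 ± 0.18, adjusted p = 0.0568). Without WT 4 its log2 fold change was -0.93, with an adjusted p of 0.0146 in limma. Of the 8 fits that left out 1 library, 1 called Gda. It was called in 2 of all 23 alternative fits, with an adjusted p of up to 0.437. Nt5c2 (0.28) and Ampd3 (-0.23) had adjusted p-values of 0.126 and 0.255.

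Enzymes and receptors of extracellular nucleotides had 3 of 16 members higher and 3 lower at an unadjusted p under 0.05, and 0 called (median -0.03). Alpi, the intestinal alkaline phosphatase, was at 0.34 to 1.55 FPKM in WT and 1.73 to 13.5 in KO (2.07, adjusted p = 0.168). Of the WT libraries only WT 3 reached 1 FPKM, so Alpi passed the filter through the group where it was high. Alpi is also on the small intestine list, whose summed level was higher in every KO library than in any WT library. The nucleotide-cleaving ectoenzymes Entpd8 (0.40, or 0.26 without KO 2) and Entpd1 (-0.45, or -0.29 without KO 2) and the UDP receptor P2ry6 (-0.55) did not pass. Of 8 histidine, histamine and carnosine genes tested out of 16 fixed, 0 were called and 1 was higher at an unadjusted p under 0.05 (median -0.06). That gene was Carns1, which joins histidine into carnosine, at 0.59 to 0.81 FPKM in WT and 0.96 to 1.31 in KO (0.30, adjusted p = 0.166). No WT library reached 1 FPKM, so Carns1 passed the filter through the group where it was high. Aoc1, which degrades histamine in the gut, had a log2 fold change of -0.57, or -0.19 without KO 2, where it was lowest, and Hars2 (-0.11, or -0.06 without KO 2) and Hnmt (0.23) did not pass.

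The COM group shows where the remaining strain lay. Its comparisons share the KO or the WT libraries with the comparison above, so their values are given side by side only. In KO against COM 4 genes were called (0.0311%): Banp, Fxr1 and Ints8 were lower in KO (0.0233%) and Zfp414 was higher (0.00776%). In COM against WT, Dbp was the 1 gene called (0.00776%), at a log2 fold change of 2.08 (adjusted p = 0.0181). The genes called in KO against WT were selected for a gap between those groups, which by itself favours a COM mean between them. Shares over all genes are not given beside the counts that follow. Whether COM lay between the groups more often than this selection gives was therefore not tested. For 105 of the 111 genes called in KO against WT, the COM mean lay between the WT and KO means. It was nearer to WT than to KO on the log2 scale for 49 of the 111, and for 10 of the 24 named by rule.

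The 24 named genes differed in this, and the 6 that follow were chosen after their values were seen. C1qtnf6 and Cited2 had COM values near WT: C1qtnf6 was at 11.6 to 13.1 FPKM in COM, beside 10.5 to 14.1 in WT and 17.1 to 20.7 in KO, and Cited2 was at 41.5 to 48.1 in COM, beside 37.0 to 48.2 and 27.1 to 36.3. Krt18 at 286 to 321 in COM also overlapped only WT. Map3k6, a stress-activated kinase, was at 2.83 to 3.63 FPKM in COM, beside 4.56 to 7.81 in WT and 2.74 to 3.36 in KO. Hr, a nuclear receptor corepressor, was at 8.06 to 10.2 in COM, beside 11.3 to 12.8 and 6.55 to 8.66. Both of these and Flywch2 had COM libraries that overlapped only KO. None of these 6 passed in KO against COM or in COM against WT.

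**Figure D5:**
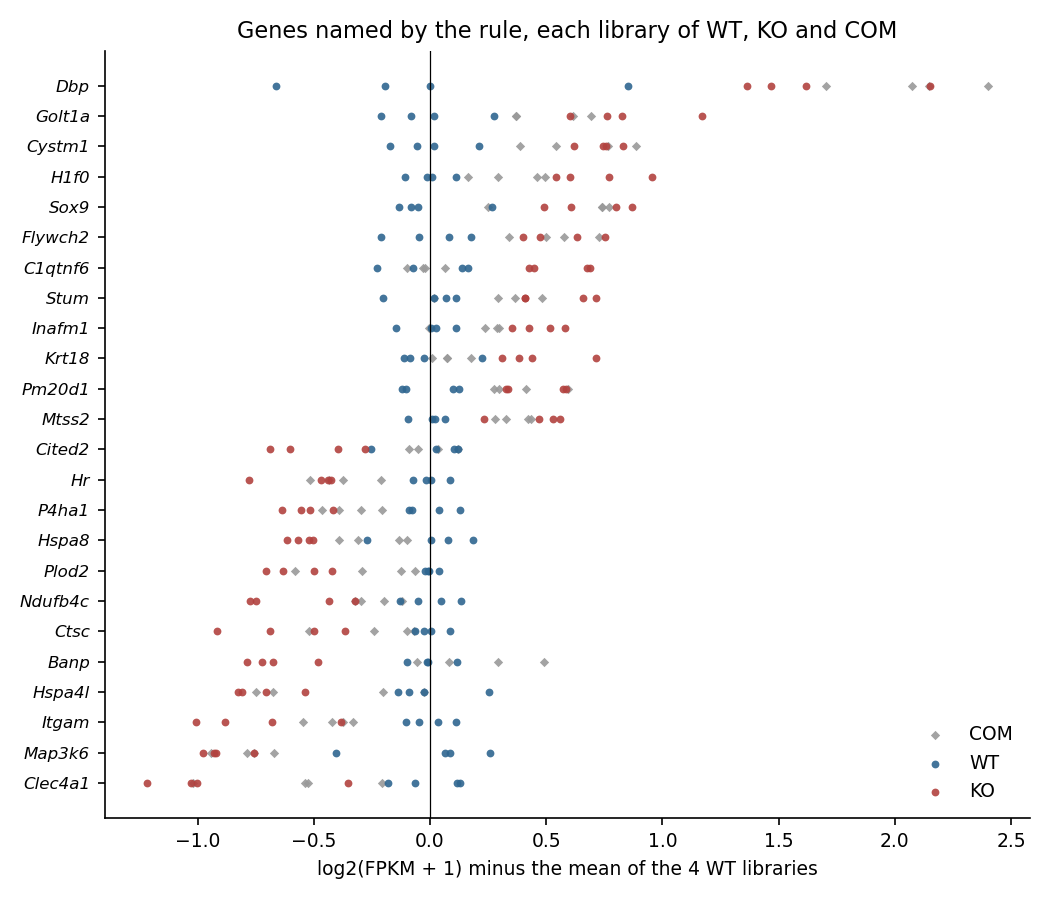
The 24 genes named by rule, with each WT, KO and COM library as a point at its log2(FPKM + 1) minus the mean of the 4 WT libraries. KO and WT do not overlap in any gene, Dbp lies farthest from 0, and COM lies near WT for C1qtnf6 and Cited2 and near KO for Map3k6.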

How the data were processed

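Whole colon was rinsed and snap-frozen, and RNA was sequenced on the DNBSEQ platform, per the labels' protocols. The authors deposited FPKM values per gene. The submitters' processing notes name mm10, while the aligner, FPKM program and annotation are not stated in the sources used here. Symbols and coordinates came from the RefSeq table of GRCm38.p6, which matched 18230 identifiers and left 119 unmatched. Read depth is unknown, and library totals of the 8 libraries were 517933 to 531907 FPKM. No 2 of them shared more than 0.56% identical values.

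Values were taken as log2(FPKM + 1), which understates changes of low genes. The fit, in limma 3.58.1 under R 4.3.3, held all 18 libraries in 5 groups, with a mean-variance trend and 13 residual degrees of freedom. Called genes had a two-sided p, adjusted after Benjamini and Hochberg over 12880 genes, under 0.05. The fit was tested on simulated data.

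By rule, the text names the 12 called genes with the largest change in each direction among those without overlap whose higher group averaged 5 FPKM or more, leaving out predicted genes, clone names, pseudogenes, mitochondrial genes and antigen receptor segments. From each list it names up to 4 members, called ones before those with the smallest p. A few genes that the rule names are not reported here. The members and lists were chosen with earlier results of these data known. Alternatives covered the pseudocount, filters, scaling, libraries in the fit, replicate block, single libraries left out and, chosen after seeing the data, removal of each library's trend on length and GC content, which GENCODE transcripts gave for 99% of genes tested.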

Additional observations from a re-analysis of the deposited data

Results flagged for a closer look

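For 136 genes named in the text, the highest or lowest library of each group of 4 was compared with the rest by Dixon's gap test. Of 272 groups, 14 had a library standing apart, which is close to the rate of about 1 in 20 that chance alone gives. The flags are therefore listed as values and are not read as a property of a library.

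In 5 genes it was KO 2: Adam17, a shedding protease, was low at 10.25 FPKM, Hr low at 6.55, Slpi low at 5.79 and Tjp1 low at 30.86, while Gsdmc2 was high at 702.0. KO 2 is also the library with the lowest distal gut Hox level. In 4 genes it was WT 4: the lipid flippase gene Atp10b was low at 71.39 FPKM, Gda low at 37.88 and Tlr4 low at 7.1, while the interferon-induced Oas2 was high at 33.99.

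The other 5 were spread over 4 libraries. In WT 3, Alpi was high at 1.55 FPKM and Ndufv1 low at 57.04. Cnn1 was low in KO 4 at 296.9 FPKM, Atf4 low in WT 1 at 79.03, and Zbtb16 low in WT 2 at 2.04. The part of these libraries in the results was not tested beyond the fits that leave each of them out.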

How the results depend on the processing

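All 111 called genes kept their direction under every alternative in which they were tested, and the counts moved widely. Against 111 calls (43 higher, 68 lower), no filter on low values gave 51 (18 and 33), a filter of 5 FPKM 170 (67 and 103), quantile normalization 171 (79 higher), and TPM 123 (26 higher). A spread taken from only the 8 KO and WT libraries gave 515 (268 and 247), and from the 12 KO, WT and COM libraries 682 (330 and 352). A fold threshold of 1 on the log2 scale left 1 (1 and 0). Removing the trend on length and GC content gave 47 (22 and 25), or 294 (171 and 123) with only the 8 libraries.

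Leaving out 1 library gave 0 to 163 calls, 0 to 65 higher and 0 to 104 lower, and the 0 calls in limma without WT 3 stood beside 2068 genes at an unadjusted p under 0.05. Without KO 2 and KO 3 there was 1 call (1 and 0), with 1237 at an unadjusted p under 0.05. Without WT 2, WT 4 and KO 3 limma made 0 calls (0 and 0), with 1415 at an unadjusted p under 0.05. The cause was not tested.

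A replicate block gave 10 calls (4 and 6) with all 18 libraries and 6 (4 and 2) with 8. Deviations of same-numbered KO and WT libraries correlated at 0.22, 0.16, -0.18 and 0.01, and only KO 1 matched its own number best, so the numbers were not taken to pair the samples. FPKM carries no counts, so the depth behind a low value is unknown.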

Other observations

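Other called genes lay outside the fixed lists, and those named here were chosen after their values were seen. Stxbp3, a vesicle fusion regulator, and Pappa, a protease that frees insulin-like growth factors, shared the lowest adjusted p with H1f0 (0.0127 in limma). Stxbp3 fell by a small amount, from 36.2 to 37.3 FPKM in WT to 30.3 to 31.3 in KO, with little spread in either group (log2 fold change -0.24 ± 0.04, SE). Pappa fell from 1.01 to 1.41 FPKM to 0.38 to 0.57, and its COM libraries (0.55 to 0.58) stood with KO. Of the 8 libraries, only those of WT reached 1 FPKM for Pappa, so it passed the filter through the group where it was high. Zbtb16, a zinc finger transcription factor, fell from 2.04 to 3.23 FPKM to 0.48 to 1.48 (-0.93 ± 0.15, adjusted p = 0.0235), with COM at 0.95 to 1.43. Ifi207, an interferon-inducible gene, fell from 3.20 to 4.07 FPKM to 0.99 to 2.16 (-0.73, adjusted p = 0.0435). For both Zbtb16 and Ifi207 the lowest KO library was under 1 FPKM, and every WT library was above it.

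Smaller falls were measured in other called genes. Ripk1, a kinase downstream of the tumour necrosis factor receptor, was at 20.6 to 23.7 FPKM in WT and 15.9 to 18.4 in KO (-0.32, adjusted p = 0.0435), and Adam17, which sheds tumour necrosis factor, at 13.4 to 14.3 and 10.3 to 11.04 (-0.34, adjusted p = 0.0311). Ncoa4, the receptor that delivers ferritin for breakdown, was at 58.0 to 63.4 and 40.7 to 53.04 (-0.32, adjusted p = 0.0457), and the epithelial factor Ehf at 102 to 114 and 89.4 to 94.5 (-0.24, adjusted p = 0.0477). Uqcr11, a complex III subunit with a transcript of 445 bases, rose from 126 to 141 FPKM to 154 to 182 (0.35, adjusted p = 0.0477). With the trends on length and GC content removed its log2 fold change was 0.20 (adjusted p = 0.0984). Bola3, an iron-sulfur cluster factor, and Cenpx, a centromere protein, rose by 0.32 and 0.31 on the log2 scale. Stxbp3, Ifi207, Ripk1, Ncoa4, Ehf, Bola3 and Cenpx also lost the call with these trends removed, at adjusted p-values of 0.0547 to 0.0984 in limma.

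No gene of the 3 lipid lists was called. Of 18 cholesterol synthesis genes, 3 were higher at an unadjusted p under 0.05 (median 0.18), including the regulator Srebf2 at 50.4 to 52.6 FPKM in WT and 58.8 to 65.2 in KO (0.23, adjusted p = 0.0763) and Mvk (0.39, adjusted p = 0.153). Of 16 fatty acid oxidation and ketogenesis genes, 2 were higher (median 0.17), with Acads at 46.02 to 52.3 and 61.8 to 74.8 FPKM (0.46, adjusted p = 0.185) and Bdh1 at 0.19. Of 12 fatty acid synthesis genes 1 was higher, 7 had a lower KO mean and the median was -0.10. The Control and DSS levels of the genes that fell were not uniform: Banp was at 12.2 to 13.6 FPKM in Control, above WT, while Itgam was at 1.32 to 2.13, below KO.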
